A study of Homo sapiens with 12 samples.

Results

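The DNA damage checkpoint genes described here are 10 kinases and mediators, namely ATM, ATR, ATRIP, TOPBP1, RAD9A, CHEK1, CHEK2, WEE1, TP53BP1 and MDC1. They were taken by their exact symbols from the 23621 gene rows of each expression table, by a rule that uses no measured value, although the set was proposed with earlier results of these data known. All 10 were among the 14251 genes called active, that is, with an FPKM (a length-scaled measure of mRNA level, here rescaled to spike-in RNA) above 1 in at least 1 library.

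Polyadenylated RNA had been sequenced in 12 libraries from the human ovarian cancer lines KURAMOCHI (Ku) and COV362 (Cov), each given DMSO as vehicle, THZ1 at 50 nM or THZ1 at 250 nM for 6 hr. THZ1 is a covalent inhibitor of CDK7, CDK12 and CDK13, kinases that phosphorylate RNA polymerase II. Each line and condition had 2 libraries, which the design text describes as biological duplicates, and the comparisons ask how checkpoint mRNA changed when these kinases were inhibited. The cells are labelled as untransduced controls, so no group carries a transgene, and all 3 groups of a line shared 1 medium, RPMI for Ku and DMEM for Cov, both with serum and antibiotics. Each line stands for 1 tumor, 1 time point was taken, and the medium differed between the lines, so line and medium cannot be told apart. Synthetic ERCC RNA had been added in proportion to cell number and the authors scaled each line to it, so a fall in FPKM is a fall per cell counted. In bulk RNA, a smaller fraction of cells expressing a gene and less RNA in every cell cannot be told apart.

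ATM and ATR are the apical kinases of the DNA damage response. ATM answers to double-strand breaks and activates CHEK2, whereas ATR, carried to single-stranded DNA by its partner ATRIP, is activated by TOPBP1 with the help of the RAD9A-containing clamp and activates CHEK1. CHEK1 and WEE1 hold back the cyclin-dependent kinases that drive replication and mitosis, and MDC1 and TP53BP1 assemble on the damaged chromatin and steer repair.

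The labelled cell type was checked against markers. Of 11 markers of ovarian epithelium and ovarian carcinoma, 10 were above 1 FPKM in the DMSO libraries of each line, the exceptions being MUC16 in Ku and WT1 in Cov, and the defining marker PAX8 had a mean of 136 FPKM in Ku and 124 FPKM in Cov. Of 7 markers of blood, endothelial and stromal cells, 3 were above 1 FPKM with DMSO in Ku (CDH5 at 8.23, COL1A1 at 2.53 and CD14 at 1.31) and 2 in Cov (CDH5 at 7.75 and COL1A1 at 3.17), while PTPRC, CD3E, PECAM1 and DCN had means of 0.106 to 0.338 FPKM. THZ1 lowered most of the transcriptome: the median active gene had a log2 fold change against DMSO of -0.40 at 50 nM and -1.11 at 250 nM in Ku, and of -0.85 and -1.31 in Cov. Each checkpoint gene is therefore set beside the active genes. Replicate libraries correlated across genes with Pearson r of 0.9677 to 0.9826, and total gene FPKM ran from 607000 to 1687000 per library. The tables give no read counts, so the depth behind each value is unknown.

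Promoter windows of 4 genes are shown because they belong to 3 of the 4 members that fell most at 250 nM and to the one that fell least, so that sequence upstream of genes with unlike responses stands side by side. Each is the 250 bases before a RefSeq transcription start (GRCh38.p14, a newer build than that of the expression data), given 5′ to 3′ on the gene's strand. Capitals mark the E-box CACGTG, the CCAAT box, the CHR motif TTTGAA and an E2F-type motif, for which TTGGCGC and the related letters TTCGCGC or TTCCCGC were taken, each searched on both strands. The TATA box, TATAAA, was searched as well. The windows lie at chr11:67391736-67391985 (RAD9A, plus strand), chr3:133661942-133662191 (TOPBP1, minus strand), chr3:48446487-48446736 (ATRIP, plus strand) and chr11:108222817-108223066 (ATM, plus strand).
RAD9A: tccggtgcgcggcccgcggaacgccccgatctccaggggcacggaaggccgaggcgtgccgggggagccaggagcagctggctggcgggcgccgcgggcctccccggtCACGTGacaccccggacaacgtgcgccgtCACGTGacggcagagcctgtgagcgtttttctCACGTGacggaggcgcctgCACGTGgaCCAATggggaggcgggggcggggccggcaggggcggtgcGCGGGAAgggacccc
TOPBP1: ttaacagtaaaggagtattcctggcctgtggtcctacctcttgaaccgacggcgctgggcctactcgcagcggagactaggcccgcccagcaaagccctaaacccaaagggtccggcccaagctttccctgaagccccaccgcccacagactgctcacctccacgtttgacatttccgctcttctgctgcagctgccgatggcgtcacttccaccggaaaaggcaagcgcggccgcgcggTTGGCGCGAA
ATRIP: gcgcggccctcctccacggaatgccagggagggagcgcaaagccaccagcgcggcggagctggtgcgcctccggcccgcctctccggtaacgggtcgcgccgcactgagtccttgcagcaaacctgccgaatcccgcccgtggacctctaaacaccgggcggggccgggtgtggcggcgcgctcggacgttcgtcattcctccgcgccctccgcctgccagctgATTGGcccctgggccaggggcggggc
ATM: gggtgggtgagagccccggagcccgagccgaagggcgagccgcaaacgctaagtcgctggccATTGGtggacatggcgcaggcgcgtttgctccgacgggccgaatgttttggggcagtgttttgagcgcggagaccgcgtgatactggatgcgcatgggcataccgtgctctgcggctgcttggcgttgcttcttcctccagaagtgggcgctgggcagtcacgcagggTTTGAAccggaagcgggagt
The RAD9A window held 4 copies of CACGTG. Of 35116 RefSeq windows of this length, 5 (0.0142%) held at least 4 copies, and at least 1 was held by 6.34% of all windows and 8.19% of those of active genes. That share is given for the highest count of any of 5 motifs over the 13 windows of the members. The RAD9A window was 75.6% GC, against a median of 64.4% for windows of active genes. Its last capitals are an E2F-type motif read on the other strand. In TOPBP1 the capitals at the 3′ end hold 2 E2F-type motifs that overlap on opposite strands. The members had 13 windows over 9 genes, some of which overlap within a gene, so that 1 site can be counted more than once. That of RAD9A was the only one of the 13 with an E-box. An E2F-type motif was found in 3 of the 13, against 9.32% of all windows and 13.6% of those of active genes. A CCAAT box was found in 11 of the 13, or in 7 of the 9 genes (32% and 32.7% of windows), TTTGAA in 2 (13.3% and 9.1%) and TATAAA in none (10.7% and 5.92%). WEE1 had no entry in the promoter table. These matches describe letters, and no binding was measured here.

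At 250 nM every member was lower than with DMSO in both lines, on the spike-in scale. WEE1 and ATRIP fell furthest, ATM and CHEK2 least. In Ku 8 of the 10 members passed the call for lower expression (limma, Benjamini-Hochberg adjusted p under 0.001 over all active genes and a log2 fold change beyond 0.5 in size), in a comparison where 68.6% of active genes did. In Cov all 10 passed, where 84% of active genes did. At 50 nM only ATRIP passed in Ku (1 of 10, background 11.3%), and all 10 passed in Cov (background 70.5%), or 4 (ATRIP, TOPBP1, RAD9A and MDC1) without DMSO replicate 2 of Cov, where the background was 30.3%. At an adjusted p under 0.05 with the same fold limit, 8 passed at 50 nM in Ku, where 40.2% of active genes did. On the spike-in scale none was called higher. Active genes called higher made up 0.0842% at 50 nM, 0.0491% at 250 nM and 0.0421% between the doses in Ku, and 0.0772%, 0.105% and 0.0842% in Cov. The median log2 fold change of the members at 250 nM was -1.40 in Ku and -1.95 in Cov, in each line below the median of all active genes. Genes above 10 FPKM in at least 1 library, a filter that drops ATM, had lower medians than all active genes, -1.29 in Ku and -1.50 in Cov. Of those genes, 82.5% and 94% were called lower. The falls hold per cell counted. With all libraries scaled to equal median FPKM, the median active gene was at 0.30 in Ku and 0.33 in Cov at 250 nM. ATM, CHEK1, CHEK2 and MDC1 then turned positive in both lines, CHEK1 in Cov only to 0.036, and ATR and TP53BP1 in Ku. ATM, CHEK1, CHEK2 and MDC1 were called higher in Ku and ATM in Cov, where 27% and 26.6% of active genes were. WEE1, ATRIP, TOPBP1 and RAD9A stayed negative in both lines. RAD9A (-0.097 in Ku and -1.02 in Cov) lost its calls, and TOPBP1 (-0.25) lost that in Ku. WEE1 and ATRIP stayed called in both lines and TOPBP1 in Cov, where 11.7% and 11.3% of active genes were lower. At 50 nM no member was called lower on that scale in either line, where 0.589% of active genes were in Ku and 0.154% in Cov. With 2 libraries against 2, an exact permutation test cannot give a two-sided p below 0.33, so every adjusted p below comes from the limma fit, which pools the spread over genes.

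**Figure D1:**
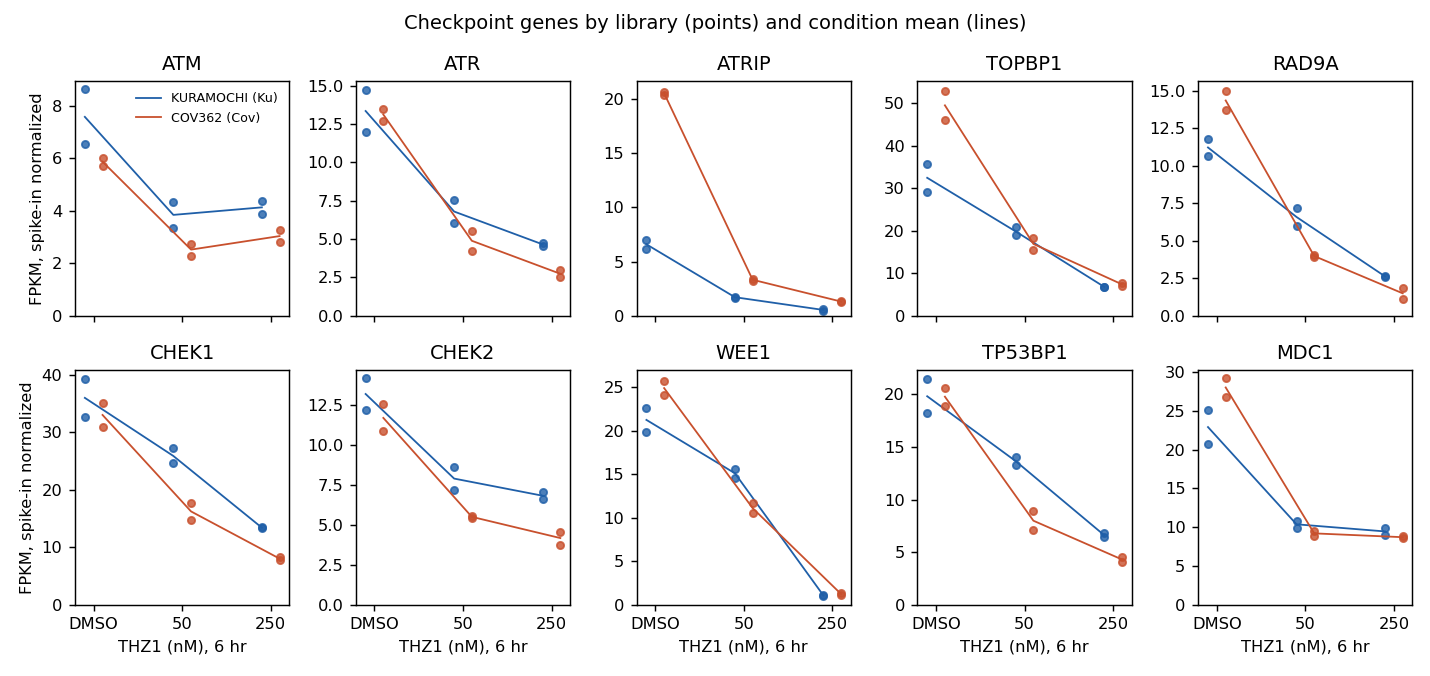
Spike-in normalized FPKM (linear axis from 0, scaled per gene) of each of the 10 checkpoint genes against THZ1 dose after 6 hr, with 1 point per library and lines through the means of 2 libraries, Ku in blue and Cov in red. WEE1 ends near 1 FPKM in both lines, while ATM levels off, or rises slightly, between 50 and 250 nM.

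ATM, the kinase that opens the response to double-strand breaks, lies on chromosome 11 at 108093771 to 108239829 of GRCh37 (plus strand) and has the longest transcript span of the set, 146 kb with 63 exons. In Ku its FPKM was 8.63 and 6.53 with DMSO, 4.34 and 3.35 at 50 nM, and 3.87 and 4.39 at 250 nM. In Cov it was 5.72 and 6.02 with DMSO, 2.29 and 2.75 at 50 nM, and 3.26 and 2.81 at 250 nM. Both DMSO libraries lay above all treated ones in each line, but the doses were not ordered: they overlapped in Ku, and in Cov both 250 nM libraries lay above both 50 nM libraries. Against DMSO the log2 fold change at 250 nM was -0.73 ± 0.182 (SE) in Ku, where it missed the call (limma adjusted p = 0.0086), and -0.77 ± 0.114 in Cov, where it passed (adjusted p = 0.000358). ATM thus kept 54.5% of its DMSO mean in Ku and 51.7% in Cov, and 70.6% and 79.4% of active genes had a lower log2 fold change than it did. The Cov call was lost without DMSO replicate 1 (adjusted p = 0.0027), without DMSO replicate 2 (0.00411) and without 250 nM replicate 2 (0.00291). That call was also lost with a replicate block (limma adjusted p = 0.00179) and without a filter on low values (0.0017). At 50 nM the log2 fold change was -0.82 ± 0.182 in Ku (adjusted p = 0.011) and -0.97 ± 0.114 in Cov (limma adjusted p = 0.00016). The Cov call at 50 nM was also lost without either Cov DMSO library and with a replicate block (limma adjusted p = 0.00103).

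ATR, the kinase of stalled replication forks, lies on chromosome 3 at 142167849 to 142297575 (GRCh37, minus strand) and spans 129 kb. Its FPKM in Ku was 14.7 and 12 with DMSO, 7.55 and 6.03 at 50 nM, and 4.57 and 4.73 at 250 nM. In Cov the values were 12.7 and 13.5, 4.22 and 5.55, and 2.95 and 2.52 in the same order. The 3 conditions did not overlap in either line and fell with dose. At 250 nM the log2 fold change was -1.34 ± 0.155 in Ku (limma adjusted p = 0.000265) and -1.92 ± 0.136 in Cov (6.86e-06), leaving 34.9% and 20.8% of the DMSO mean. Of active genes, 39.3% in Ku and 22.9% in Cov had a lower log2 fold change than ATR at this dose. In Ku the call was lost without DMSO replicate 1 (adjusted p = 0.00163) or either 250 nM library (0.00268 and 0.00234). Already at 50 nM ATR was at 50.9% of DMSO in Ku, which was not called (limma adjusted p = 0.0048), and at 37.3% in Cov, which was (0.000109), though not without DMSO replicate 2 of Cov (0.00152).

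ATRIP, the partner that binds ATR to single-stranded DNA, was the member with the largest change at 50 nM. The gene lies on chromosome 3 at 48488114 to 48509044 (GRCh37, plus strand). In Ku its FPKM was 7.03 and 6.16 with DMSO, 1.74 and 1.68 at 50 nM, and 0.462 and 0.603 at 250 nM. In Cov it was 20.7 and 20.4 with DMSO, 3.25 and 3.40 at 50 nM, and 1.30 and 1.31 at 250 nM. Replicates lay close together and no condition overlapped another. At 50 nM ATRIP was at 25.9% of DMSO in Ku and 16.2% in Cov, with log2 fold changes of -1.49 ± 0.117 (limma adjusted p = 0.000423) and -2.32 ± 0.092 (1.95e-05). Only 4.8% of active genes in Ku and 0.821% in Cov had a lower log2 fold change at that dose. The Ku call at 50 nM was lost without any 1 of the 6 Ku libraries (adjusted p 0.00138 to 0.00397). At 250 nM the mean FPKM of ATRIP was 12.4-fold lower in Ku and 15.7-fold lower in Cov. The fitted log2 fold changes, which are smaller in size because 1 is added to each FPKM, were -2.31 ± 0.117 and -3.22 ± 0.092 (limma adjusted p = 1.39e-05 and 8.16e-07). Exons of ATRIP share 1096 bases with TREX1 on the same strand, so the counting may have split reads between them. TREX1, a DNA exonuclease gene, had 25.6 and 26.7 FPKM with DMSO in Cov and 4.08 and 4.61 at 250 nM, and 6.83 and 6.69 against 0.866 and 0.724 in Ku, so both overlapping genes were lower.

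TOPBP1, which switches on ATR, lies on chromosome 3 at 133317019 to 133381224 (GRCh37, minus strand). In Ku the libraries read 35.7 and 29.2 FPKM with DMSO, 20.7 and 18.9 at 50 nM, and 6.78 and 6.80 at 250 nM. In Cov they read 46.1 and 52.9, 15.4 and 18.4, and 7.76 and 7.01. The conditions were separate in both lines, with the larger step in Ku between the doses and in Cov between DMSO and 50 nM. At 250 nM the log2 fold change was -2.10 ± 0.119 in Ku (limma adjusted p = 1.82e-05) and -2.59 ± 0.12 in Cov (1.3e-06), with 20.9% and 14.9% of DMSO left. At 50 nM it was -0.68 ± 0.119 in Ku, not called (limma adjusted p = 0.00477), and -1.50 ± 0.12 in Cov (3.81e-05). A log2 fold change lower than that of TOPBP1 at 250 nM was seen for 15.1% of active genes in Ku and 7.51% in Cov.

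RAD9A, a subunit of the clamp loaded beside damaged DNA, has the shortest canonical transcript span of the set, 6.42 kb on chromosome 11 (67159457 to 67165881 of GRCh37, plus strand). Its FPKM in Ku was 11.8 and 10.7 with DMSO, 7.17 and 6.01 at 50 nM, and 2.57 and 2.68 at 250 nM. In Cov it was 15.0 and 13.8, 4.03 and 3.93, and 1.14 and 1.84. No condition overlapped another, and on the log2 scale the 250 nM libraries of Cov lay furthest apart. RAD9A kept 23.4% of DMSO at 250 nM in Ku and 10.4% in Cov, with log2 fold changes of -1.75 ± 0.135 (limma adjusted p = 4.77e-05) and -2.64 ± 0.146 (2.36e-06). At 50 nM the change in Ku was -0.69 ± 0.135, not called (limma adjusted p = 0.007), and that in Cov -1.62 ± 0.146 (5.54e-05). The share of active genes with a lower log2 fold change than RAD9A at 250 nM was 23.9% in Ku and 6.75% in Cov. RAD9A shares 228 exonic bases on opposite strands with PPP1CA, a phosphatase subunit gene at 206.9 and 198.6 FPKM with DMSO in Ku and 107.8 and 107.1 at 250 nM. The kit was stranded, but whether strand was used in the quantification is not given in the sources used here.

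CHEK1, the kinase activated by ATR, lies on chromosome 11 at 125495058 to 125546150 (GRCh37, plus strand). In Ku it read 39.3 and 32.8 FPKM with DMSO, 27.2 and 24.6 at 50 nM, and 13.3 and 13.5 at 250 nM. In Cov it read 31.0 and 35.1, 14.8 and 17.7, and 7.83 and 8.24. Every condition was separate from the others, and CHEK1 stayed among the 2 most abundant members at every dose. The log2 fold change at 250 nM was -1.35 ± 0.109 in Ku (limma adjusted p = 5.73e-05) and -1.91 ± 0.116 in Cov (3.42e-06), with 37.3% and 24.3% of DMSO left. Of active genes, 38.6% in Ku and 23.3% in Cov had a lower log2 fold change than CHEK1 at this dose. At 50 nM CHEK1 kept 71.9% in Ku, not called (limma adjusted p = 0.0145), and 49.2% in Cov, called (0.000163) but not without DMSO replicate 2 of Cov (0.00198).

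CHEK2, the kinase activated by ATM, lies on chromosome 22 at 29083731 to 29138410 (GRCh37, minus strand). Its FPKM in Ku was 14.2 and 12.2 with DMSO, 8.63 and 7.19 at 50 nM, and 6.61 and 7.06 at 250 nM. In Cov it was 10.9 and 12.6, 5.44 and 5.58, and 4.59 and 3.77. DMSO stood clear of both doses, and the doses, although separate, lay close together. At 250 nM CHEK2 kept 51.7% of DMSO in Ku, just outside the call (log2 fold change -0.86 ± 0.135, limma adjusted p = 0.0011), and 35.7% in Cov (-1.30 ± 0.121, limma adjusted p = 2.74e-05). In both lines its fold change was close to that of the median active gene, with 63.6% of active genes lower in Ku and 50.5% in Cov. At 50 nM it kept 59.9% in Ku (limma adjusted p = 0.00761, not called) and 47.1% in Cov (0.000218, called), the latter lost without DMSO replicate 1 (0.00104) or 2 (0.00272) of Cov.

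WEE1, the kinase that keeps CDK1 inactive before mitosis, lies on chromosome 11 at 9595217 to 9615004 (GRCh37, plus strand). In Ku its FPKM was 22.6 and 19.8 with DMSO, 15.6 and 14.6 at 50 nM, and 1.11 and 1.02 at 250 nM. In Cov it was 24.0 and 25.7 with DMSO, 10.5 and 11.7 at 50 nM, and 1.30 and 1.16 at 250 nM. No condition overlapped another, and all 4 libraries at 250 nM lay between 1.02 and 1.30 FPKM. At 250 nM the mean FPKM of WEE1 was 19.9-fold lower than with DMSO in Ku and 20.2-fold lower in Cov, with 5.02% and 4.94% left. On the log2(FPKM + 1) scale, where low values are compressed, the fitted change was -3.43 ± 0.12 in Ku (limma adjusted p = 7.03e-06) and -3.54 ± 0.102 in Cov (8.16e-07). Among active genes, 1.77% in Ku and 0.849% in Cov had a lower log2 fold change. At 50 nM it kept 71.1% in Ku, not called (limma adjusted p = 0.0191), and 44.6% in Cov, called (6.3e-05) but not without DMSO replicate 2 of Cov (0.0011). At this dose 44.4% and 29% of active genes had a lower log2 fold change than WEE1. The call at 250 nM held in both lines when libraries were scaled to equal median FPKM (log2 fold changes -1.97 in Ku and -1.93 in Cov), and without any 1 library.

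TP53BP1, a chromatin reader that favors end joining, lies on chromosome 15 at 43695259 to 43802926 (GRCh37, minus strand). In Ku it read 21.4 and 18.2 FPKM with DMSO, 14.0 and 13.3 at 50 nM, and 6.41 and 6.82 at 250 nM. In Cov it read 18.9 and 20.7, 7.09 and 8.89, and 4.51 and 4.10. The conditions did not overlap in either line. Among active genes, 34.5% in Ku and 21.3% in Cov had a lower log2 fold change than TP53BP1 at 250 nM. At 250 nM its log2 fold change was -1.45 ± 0.113 in Ku (limma adjusted p = 5.08e-05) and -1.97 ± 0.125 in Cov (4.17e-06), leaving 33.4% and 21.8% of DMSO. At 50 nM it was -0.50 ± 0.113 in Ku, not called (limma adjusted p = 0.0117), and -1.22 ± 0.125 in Cov, called (9.24e-05) but not without DMSO replicate 2 of Cov (0.00137). Its exons share 3067 bases with TUBGCP4 on the opposite strand, so its values carry the same doubt on strand as those of RAD9A. CHEK1 and MDC1 carry it too, since 751 exonic bases of CHEK1 and 701 of MDC1 (with MDC1-AS1) lie opposite long noncoding RNA genes without a row in the tables.

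MDC1, the scaffold that reads phosphorylated H2AX, lies on chromosome 6 at 30667584 to 30685224 (GRCh37, minus strand). Its FPKM in Ku was 25.1 and 20.7 with DMSO, 10.8 and 9.96 at 50 nM, and 8.97 and 9.94 at 250 nM. In Cov it was 26.8 and 29.2, 9.50 and 8.91, and 8.85 and 8.57. Most of the fall seen at 250 nM was already present at 50 nM in both lines, and the doses, although separate, nearly touched. At 50 nM MDC1 was at 45.3% of DMSO in Ku (log2 fold change -1.07 ± 0.124, limma adjusted p = 0.00116, just outside the call) and at 32.9% in Cov (-1.51 ± 0.0922, limma adjusted p = 2.25e-05). At 250 nM it was at 41.3% in Ku (limma adjusted p = 0.000166) and 31.1% in Cov (2.92e-06). The Ku call at 250 nM was lost without either 250 nM library (limma adjusted p = 0.00188 and 0.00124). Its place among active genes moved accordingly: 11.9% were lower than MDC1 at 50 nM in Ku and 46.1% at 250 nM, and 9.35% and 36.1% in Cov.

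**Figure D2:**
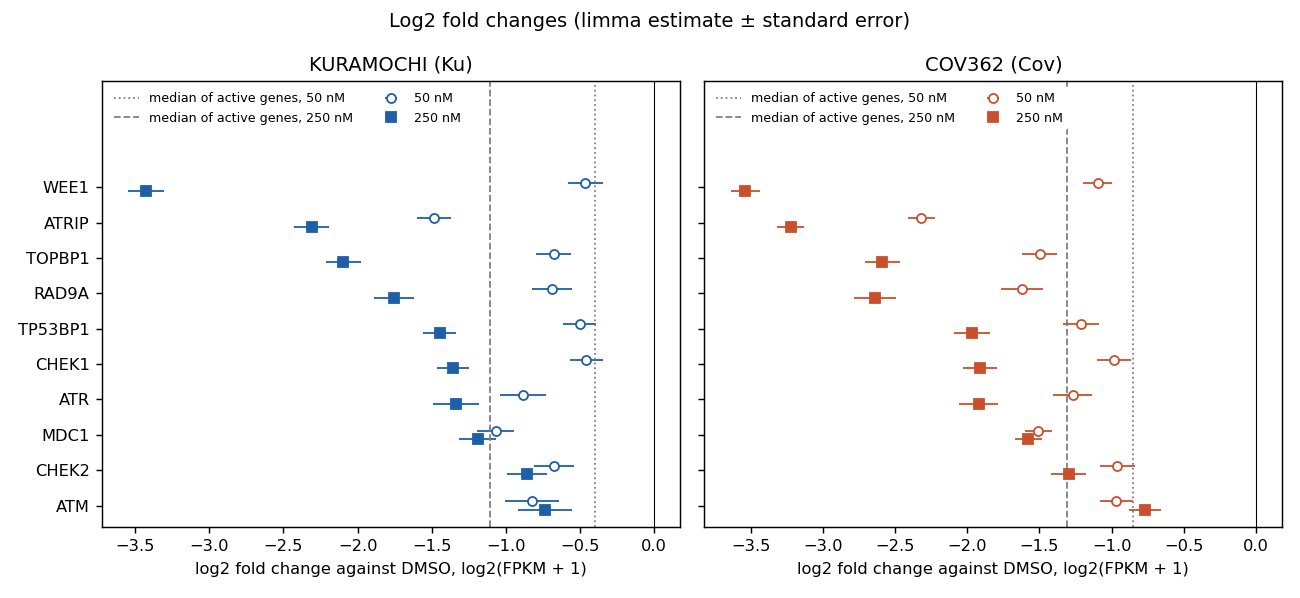
Log2 fold change against DMSO on the log2(FPKM + 1) scale (limma estimate, bars ± SE, n = 2 libraries per group) of each checkpoint gene at 50 nM (open circles) and 250 nM (squares) in Ku (left) and Cov (right), with the median of all 14251 active genes at each dose as vertical lines. WEE1 lies near the median at 50 nM in Ku and far below it at 250 nM, whereas ATM lies above the 250 nM median in both lines.

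Between 50 and 250 nM the members ranged from no called change to a 14.2-fold fall. Both treated groups were fitted together with DMSO, so these comparisons share libraries with the ones above. In Ku 5 of 10 members were called lower at 250 than at 50 nM (WEE1, TOPBP1, RAD9A, TP53BP1 and CHEK1), where 36% of active genes were. In Cov 4 of 10 were (WEE1, TOPBP1, CHEK1 and ATRIP), where 24.4% were, and 7 of 10 at an adjusted p under 0.05, where 41.5% were. At equal median FPKM 1 member was called lower in each line (backgrounds 6.59% and 5.05%) and 3 were called higher in Ku (ATM, CHEK2 and MDC1) and 1 in Cov (ATM), where 6.62% and 3.22% of active genes were, and CHEK1, TP53BP1 and ATR also turned positive in Ku, as did ATR, CHEK2 and MDC1 in Cov. WEE1 led this step on the spike-in scale, its mean FPKM 14.2-fold lower in Ku (fitted log2(FPKM + 1) change -2.96 ± 0.12, limma adjusted p = 4.21e-05) and 9.03-fold lower in Cov (fitted change -2.44 ± 0.102, limma adjusted p = 3.38e-05), with 0.702% and 0.428% of active genes lower. It was also the only call of this step that held without each of the 6 libraries of its line in turn. The number of calls then ran from 1 to 4 in Ku and from 1 to 6 in Cov, with 1 call without any one of the 50 nM or 250 nM libraries of Ku, 1 without 250 nM replicate 1 of Cov, and 2 without 250 nM replicate 2 or either DMSO library of Cov. In these fits the background was 5.55% to 11.2% in Ku and 10.7% to 15.4% in Cov. The highest counts, 4 in Ku without a DMSO library and 6 in Cov without 50 nM replicate 1, had backgrounds of 32.2% and 32.3% in Ku and 27.9% in Cov. TOPBP1 followed with log2 fold changes of -1.42 in Ku and -1.09 in Cov. At the other end, MDC1 changed by -0.12 in Ku (limma adjusted p = 0.405) and -0.07 in Cov (0.541), neither called, and it kept 91.2% and 94.7% of its 50 nM level. ATM had 107% of its 50 nM level in Ku and 120% in Cov, with log2 differences of 0.09 ± 0.182 (limma adjusted p = 0.678) and 0.20 ± 0.114 (0.172). Neither difference was called, and that in Ku turned to -0.059 without 50 nM replicate 2. With libraries at equal median FPKM both were called higher, with log2 differences of 1.19 in Ku (limma adjusted p = 0.00064) and 0.93 in Cov (0.000935).

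**Figure D3:**
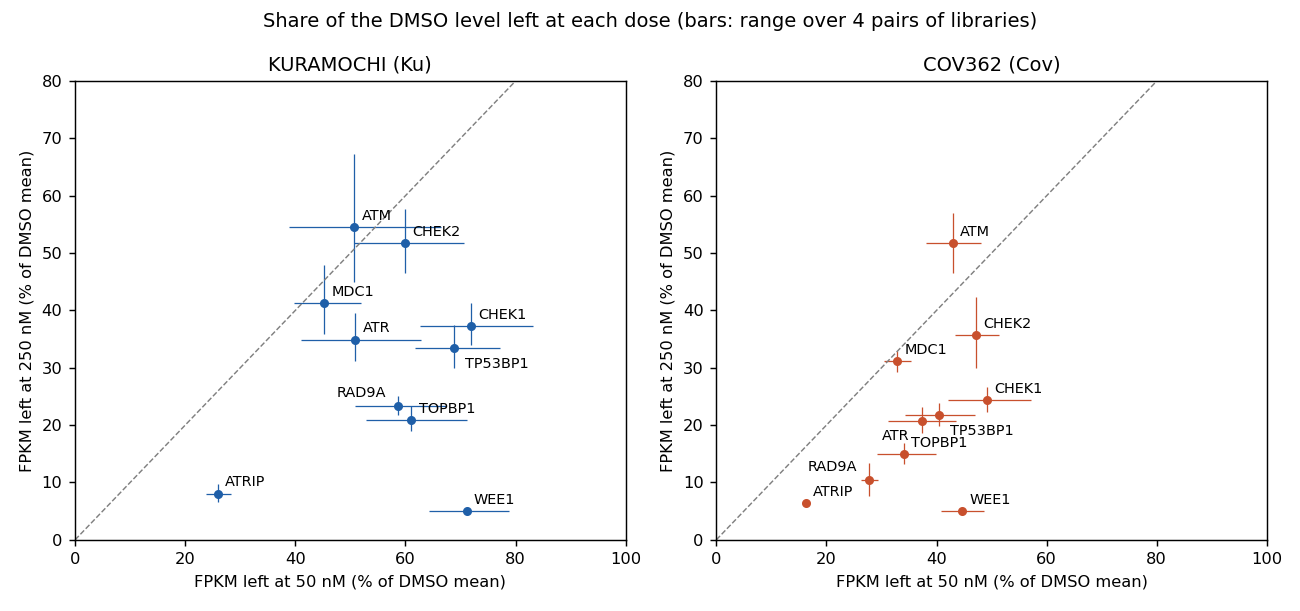
Mean FPKM left at 250 nM against that left at 50 nM, both as percent of the DMSO mean, for each checkpoint gene in Ku (left) and Cov (right), with bars for the range over the 4 pairings of a treated with a DMSO library and a dashed line of equality. ATM lies above the line in both lines, MDC1 close to it, and WEE1 far below it at 5.02% and 4.94% on the vertical axis.

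Lower at each step without overlap (DMSO to 50 nM to 250 nM) were 9 of 10 members in each line, as were 66.7% of active genes in Ku and 73.8% in Cov. ATM was the exception in both. All 10 members had DMSO libraries clear of the 50 nM ones, as did 75.8% of active genes in Ku and 95.7% in Cov, and clear of the 250 nM ones, as did 95.9% and 95.6%. The doses were separate and falling for 9 of 10 in each line, against 87.7% and 75.6% of active genes. The order of levels among the members, which FPKM allows since it is scaled to transcript length, changed with treatment. With DMSO the means in Ku ran from CHEK1 (36.0 ± 4.61 FPKM, SD, n = 2) and TOPBP1 (32.4 ± 4.62) through MDC1 (22.9 ± 3.08), WEE1 (21.2 ± 2.0), TP53BP1 (19.8 ± 2.29), ATR (13.3 ± 1.90), CHEK2 (13.2 ± 1.38), RAD9A (11.2 ± 0.811) and ATM (7.58 ± 1.48) to ATRIP (6.60 ± 0.615). Of these neighbors, CHEK1 and TOPBP1, MDC1 and WEE1, WEE1 and TP53BP1, ATR and CHEK2, and ATM and ATRIP overlapped between libraries. In Cov the order with DMSO was TOPBP1 (49.5 ± 4.82), CHEK1 (33.0 ± 2.87), MDC1 (28.0 ± 1.70), WEE1 (24.9 ± 1.18), ATRIP (20.6 ± 0.167), TP53BP1 (19.8 ± 1.23), RAD9A (14.4 ± 0.858), ATR (13.1 ± 0.550), CHEK2 (11.7 ± 1.20) and ATM (5.87 ± 0.214), where only ATRIP and TP53BP1 overlapped. ATRIP was thus the lowest member in Ku but lay above TP53BP1, RAD9A, ATR, CHEK2 and ATM in Cov, a difference that was not tested because the lines were normalized separately. At 250 nM WEE1, at rank 4 of the 10 with DMSO in both lines, was at rank 9 in Ku (1.07 FPKM) and 10 in Cov (1.23 FPKM), while ATM moved from rank 9 to 7 in Ku and from rank 10 to 6 in Cov. MDC1 moved from rank 3 to 2 in Ku (9.45 FPKM) and to 1 in Cov (8.71 FPKM).

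Further checkpoint genes, 41 in all, were listed by role, and all were active. At 250 nM 35 were called lower in Ku (median log2 fold change -1.80), where 68.6% of active genes were, and 39 in Cov (-1.73), where 84% were, and with libraries at equal median FPKM these counts were 7 and 6, where 11.7% and 11.3% of active genes were. None was called higher on the spike-in scale. At 50 nM 9 were called lower in Ku, against 11.3% of active genes, and 38 in Cov, against 70.5%. Of 16 sensors and activators upstream of the kinases, 13 were called lower in Ku and 16 in Cov at 250 nM, to be read against the same 68.6% and 84%. KAT5, the acetyltransferase that primes ATM, had the lowest mean log2 fold change over both lines, with 7.03% of DMSO left in Ku and 8.4% in Cov (log2 fold changes -3.31 and -3.36, limma adjusted p = 1.18e-05 and 8.16e-07). RPA1, which coats the single-stranded DNA that ATRIP binds, had the mean over both lines nearest to 0, with -0.63 in Ku (limma adjusted p = 0.00125, not called) and -1.01 in Cov (1.78e-05). ETAA1, which like TOPBP1 activates ATR and which was picked out after its values were seen, had 5.84 and 4.79 FPKM with DMSO in Ku and 0.231 and 0.245 at 250 nM, and 29.8 and 33.6 against 1.01 and 0.733 in Cov. All 4 of its libraries at 250 nM lay far below DMSO, with 4.48% and 2.74% left.

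Among 11 chromatin mediators, 9 were called lower in Ku and 10 in Cov at 250 nM, where 68.6% and 84% of active genes were. RIF1, which works with TP53BP1 at broken ends, had the lowest mean over both lines, at 14.6% and 12% of DMSO (log2 fold changes -2.42 and -2.76, limma adjusted p = 6.7e-05 and 1.66e-06). L3MBTL1, a chromatin compaction protein at 0.378 to 1.51 FPKM over the 12 libraries, had log2 differences of -0.30 (limma adjusted p = 0.12) and 0.10 (0.454). Of 14 effectors and brakes on the cell cycle, 13 were called lower in each line, against the same shares. PLK1, the mitotic kinase that marks WEE1 for destruction, went from 86.1 and 84.7 FPKM to 5.09 and 4.75 in Ku and from 110 and 118 to 14.6 and 15.5 in Cov. CDC25A, the phosphatase that opposes WEE1, kept 11.3% in Ku and 4.22% in Cov (log2 fold changes -2.71 and -3.87, limma adjusted p = 1.52e-05 and 8.16e-07). WEE1 and the phosphatase and kinase that counter it were all lower at this dose. CDKN1A, an inhibitor of cyclin-dependent kinases, kept 23.2% and 24.7%, and the ubiquitin ligase gene MDM2 16.1% and 20%, both called lower in both lines at 250 nM (limma adjusted p = 2.89e-06 to 2.96e-05). MDM4, a partner of MDM2, had log2 differences of -0.10 in Ku (limma adjusted p = 0.623) and -0.50 in Cov (0.00399), neither called.

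The longest transcripts were not the ones that fell most at 250 nM. RAD9A, at 6.42 kb, WEE1, at 16.3 kb, and ATRIP, at 20.9 kb, were among the 4 that fell most in each line, but so was TOPBP1, at 61.7 kb. ATM, at 146 kb, fell least, while MDC1, at 17.5 kb, had the smallest fall after ATM and CHEK2. ATR, at 129 kb, and TP53BP1, at 90.1 kb, fell further than MDC1, by -1.34 and -1.45 in Ku and -1.92 and -1.97 in Cov. Across 13449 active genes with an annotated canonical transcript, the median log2 fold change in 5 equal groups by span, from short to long, ran -1.01, -1.19, -1.18, -1.18 and -1.07 in Ku and -1.05, -1.31, -1.43, -1.46 and -1.35 in Cov.

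**Figure D4:**
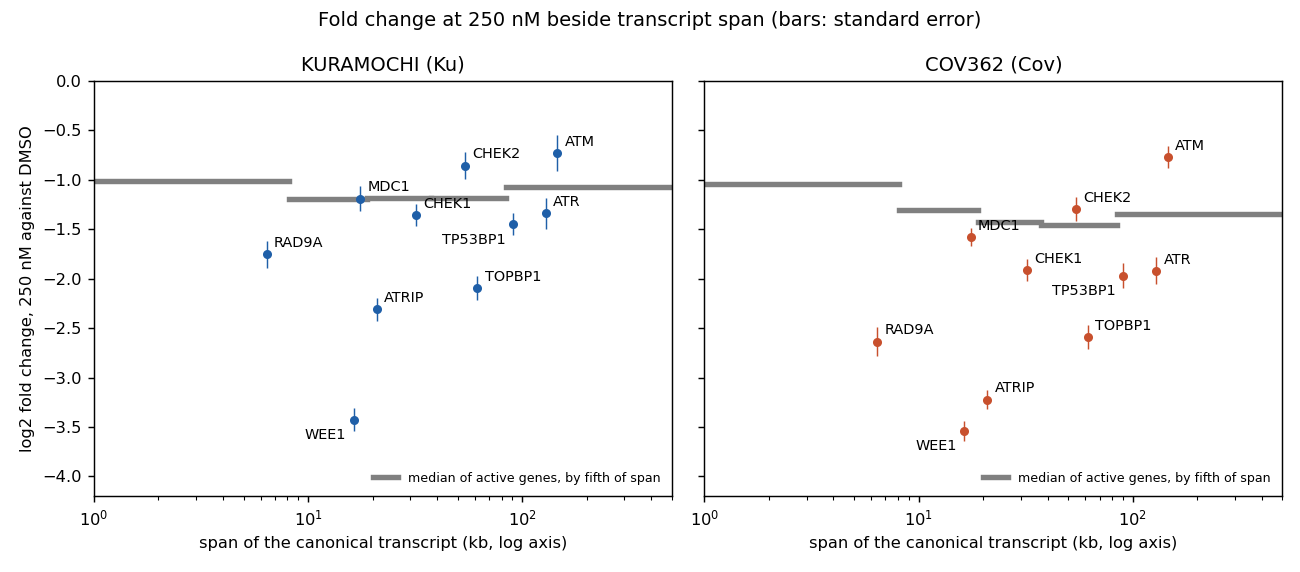
Log2 fold change at 250 nM against DMSO (log2(FPKM + 1) scale, bars ± SE) against the genomic span of the canonical transcript in kb (log axis, GRCh37) for the 10 checkpoint genes in Ku (left) and Cov (right), with gray bars for the median of active genes in each of 5 equal groups by span, the outer bars drawn only to the edges of the axis. ATM, the longest, lies highest and WEE1, at 16.3 kb, lowest in both panels, while the gray bars stay between -1.01 and -1.46.

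WEE1, the member picked for the lowest mean log2 fold change at 250 nM, lay where few active genes lie. At that dose 1.77% in Ku and 0.849% in Cov were lower than WEE1. Over the 4 log2 fold changes against DMSO (2 lines, 2 doses), the nearest genes outside the checkpoint lists were CCDC12 (root mean square difference 0.0764), C16orf72 (0.154) and CDR2 (0.179), and CCDC12 was the only one within 0.1. CCDC12 had -0.52 and -3.37 in Ku and -1.23 and -3.53 in Cov at 50 and 250 nM. ATM, picked as the highest member, lay nearer the bulk of active genes and had 10 genes within 0.1, among them LOC257396 (0.0756) and TAZ (0.0789). Such counts depend on these places and do not compare WEE1 with ATM. LOC257396 had -0.73 and -0.80 in Ku and -0.91 and -0.85 in Cov at 50 and 250 nM.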

How the data were processed

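RNA from Ku and Cov cells had been prepared with a stranded polyA kit and sequenced on a NextSeq instrument in 12 libraries. The authors aligned reads with HiSat to hg19, quantified them with cuffquant and cuffnorm, and deposited FPKM values per gene, rescaled to ERCC spike-ins in 1 table per line. Versions and strand settings are not given in the sources used here. Groups came from the labels. The 92 ERCC rows were left out, and genes above 1 FPKM in at least 1 library (14251) were kept. On log2(FPKM + 1), which understates the change of low genes, limma (version 3.58.1, R version 4.3.3, lmFit and eBayes with trend) was run within each line on its 6 libraries, with Benjamini-Hochberg adjustment over active genes, and was tested on simulated data. The study names edgeR, which needs counts that FPKM do not give. Calls used its thresholds: adjusted p below 0.001, with an absolute log2 change above 0.5. At 250 nM against DMSO, 9774 active genes were called lower in Ku (68.6%) and 11971 in Cov (84%). With its own test at the same thresholds, the study reported far fewer downregulated genes in each line. The background shares given here are therefore not those of the study, and the cause of the gap was not tested. The tables were normalized separately, so no test ran between lines.

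Named genes were all members, the lowest and highest gene of each of 3 role lists by mean log2 fold change at 250 nM, CDKN1A, MDM2 and CDC25A, and the 3 genes nearest to the lowest and the highest member, and 2 genes this rule names are not reported here. The members and lists were chosen with earlier results of these data known. Positions came from GENCODE on GRCh37, and promoters from RefSeq on GRCh38.p14. The floor, the value most rows without signal share, was 0.0783 to 0.119 FPKM, below the lowest member value (0.462). ERCC medians deviated by -0.0058 to 0.0451 on the log2 scale from the DMSO libraries. Alternatives were another pseudocount, other filters, scalings, thresholds and fits, and leaving out each library. Protein sequences were not analysed here.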

Additional observations from a re-analysis of the deposited data

How the results depend on the processing

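Scaling changed directions and counts. The median of all active genes shifted by -0.40 to -1.31 on the log2 scale against DMSO with the spike-ins, by 0.11 to 0.33 with libraries at equal median FPKM, and by under 0.1 with median-of-ratios factors. At equal medians, members called lower numbered 0 and 2 in Ku and 0 and 3 in Cov (50 and 250 nM against DMSO) and 1 in each line (250 against 50 nM), and members called higher numbered 4 (Ku, 250 nM against DMSO), 3 (Ku, 250 against 50 nM), 1 and 1 (Cov). Of active genes, 11.7% (Ku) and 11.3% (Cov) were then lower and 27% and 26.6% higher at 250 nM against DMSO, and 6.62% and 3.22% higher between doses. With median of ratios, 0, 3 and 2 were lower in Ku and 1, 3 and 1 in Cov, and 1 was higher (Ku, 250 against 50 nM). Active genes called lower then made up 2.72%, 19% and 11.1% in Ku and 0.772%, 18.9% and 7.92% in Cov, and 1.39% were higher in Ku between doses. The same shares at 50 nM with equal medians were 0.589% (Ku) and 0.154% (Cov), and between doses 6.59% and 5.05%. Other pathway genes called lower fell to 0 and 7 (Ku) and 0 and 6 (Cov) at equal medians, and to 2 and 12 (Ku) and 0 and 12 (Cov) with median of ratios. Of 60 log2 fold changes, 25 reversed at equal medians: ATM to 0.97 (Ku) and 0.93 (Cov), CHEK1 to 0.54 and 0.036, CHEK2 to 0.95 and 0.52, MDC1 to 0.67 and 0.37, and, in Ku, ATR to 0.43 and TP53BP1 to 0.38, all at 250 nM against DMSO. At 50 nM these were CHEK1 (0.23 and 0.19), WEE1 (0.20 and 0.055), TOPBP1 (0.0019) and TP53BP1 (0.16) in Ku, and CHEK2 (0.12) in Cov. Between doses they were ATR (0.66 and 0.020), CHEK2 (0.98 and 0.40), MDC1 (1.07 and 0.73), and, in Ku, CHEK1 (0.32) and TP53BP1 (0.22). With median of ratios 15 reversed: ATM (0.51 and 0.53), CHEK2 (0.46 and 0.11), CHEK1 (0.039) and MDC1 (0.18) at 250 nM, CHEK1 (0.084 and 0.0032), WEE1 (0.065) and TP53BP1 (0.024) at 50 nM, and CHEK2 (0.63 and 0.16), MDC1 (0.71 and 0.47) and ATR (0.32) between doses. The cause was not tested.

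The single member called at 50 nM in Ku became 2 with a pseudocount of 0.1 or a filter at 10 FPKM (which drops ATM), 0 without a filter or with only the 2 groups compared, and 8 at an adjusted p under 0.05 (other pathway genes 26). The share of tested genes called lower was 11.5%, 15.5%, 0.0127%, 0.0632% and 40.2% in these fits. Between doses, Ku had 1 call without a filter and 3 at a log2 fold change beyond 1, and Cov 7 at an adjusted p under 0.05 and 2 at a log2 fold change beyond 1, against shares of 8.05%, 25.2%, 41.5% and 14.3%. Leaving out 1 library gave 0 members at 50 nM and 6 to 8 at 250 nM in Ku, 4 to 10 and 9 to 10 in Cov, and 1 to 4 (Ku) and 1 to 6 (Cov) between doses. Shares of active genes in those fits were 0.0421% to 0.919% and 42.7% to 63.5% in Ku, 30.3% to 69.7% and 73.3% to 86.6% in Cov, and 5.55% to 32.3% (Ku) and 10.7% to 27.9% (Cov) between doses. ATM between doses in Ku ran from -0.059 to 0.24, reversing once.

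Replicate numbers did not pair the samples (correlations of deviations -0.00871 to 0.000345 in Ku and -0.0703 to 0.0282 in Cov). With a replicate block, members called lower numbered 0 and 8 in Ku and 8 and 9 in Cov, and 4 and 1 between doses, against 6.94% and 66.6%, 51% and 78.6%, and 34.7% and 7.93% of active genes. The depth behind low values, such as those of ATRIP and WEE1 at 250 nM, is unknown.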
